A study of Mus musculus with 9 samples.

Results

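The heat shock proteins and chaperones described here are 10 genes: Hspa1a, Hspa1b, Hspa5, Hspa8, Hspb1, Hsph1, Hsp90aa1, Dnajb1, Hspd1 and Hspe1. Probe sets were chosen by gene symbol, as those that the platform annotation assigns to any of these symbols alone. No measured value was used in that step. The list of genes was drawn up with earlier results of these data known. Of the 10 genes, 8 were measured, by 19 of the 45037 probe sets tested. Hspa1a and Hspd1 had no probe set that named them alone and were not analysed here.

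Methylphenidate (MPH), a psychostimulant that blocks the dopamine and norepinephrine transporters, was given to Swiss Webster mice in a study of the basal ganglia, and RNA of the dissected substantia nigra (SN) was hybridised to Affymetrix HT MG-430 PM arrays. The 9 arrays form 3 groups of 3, each array labelled as the SN of 1 mouse. Mice received saline, MPH at 1 mg/kg, or MPH at 10 mg/kg. All mice, the saline group included, received intraperitoneal injections from postnatal day 28 on 5 days per week for 12 weeks, and tissue was taken after 7 days without injection. The sex of the mice was not given in the sources used here. The arrays are called by their deposited labels. The changes that the study lists for each dose are those of the arrays labelled with the other dose, and it is not known which naming is right, so a comparison named for a dose is one of the arrays carrying that label. Values are log2 intensities normalised over the 9 arrays, so that a difference of 1 is a doubling, and levels are compared within a probe set only.

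Heat shock proteins are molecular chaperones: they bind unfolded or partly folded proteins, prevent their aggregation, and help them to fold or pass them on for degradation. Many are made at all times, while a subset is induced when misfolded protein releases the transcription factor HSF1 to bind heat shock elements, which are inverted repeats of the letters GAA in the promoters of its targets. A separate pathway, the unfolded protein response, induces the chaperones of the endoplasmic reticulum (ER) through ER stress response elements. Chaperones of both kinds are studied in the SN because its dopamine neurons accumulate misfolded alpha-synuclein in Parkinson's disease.

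The genes differ in their promoters. In RefSeq (GRCm38.p6), 8 of the 10 had a promoter to search over the 250 bases before the start, Hspa8 and Hsp90aa1 being the others. Both strands were searched. At least 1 heat shock element (GAANNTTC or TTCNNGAA, both of which lie within the 3-repeat form, GAANNTTC followed directly by NNGAA) was found in 6 of these 8. The 6 include Hspa1a and Hspa1b, which are neighbouring copies, and Hspd1 and Hspe1, which share the same stretch read from opposite strands. Of all 32851 promoters of this length, 6.69% hold GAANNTTC, 7.17% hold TTCNNGAA and 0.466% hold the 3-repeat form. A gene counted when any of its starts had a match, while these shares are per promoter and per form. The ER stress response element, a CCAAT box and CCACG separated by 9 free bases, was found in Hspa5 alone among the 8 and in 0.113% of all promoters. Dnajb1 had neither, which says only that these letters are not in that window. The 120 bases before the start are shown for 3 inducible genes that varied widely and have one of these elements in that stretch, Hspa1b (chr17:34959239-34959358, minus strand), Hspb1 (chr5:135887799-135887918, plus strand) and Hspa5 (chr2:34771970-34772089, plus strand). For Hspe1, one of the genes that varied least, 30 bases are shown (chr1:55088053-55088082, plus strand), since they hold the only form with 3 repeats among the genes measured. Capitals mark GAANNTTC in Hspb1 and Hspa1b, the ER stress response element in Hspa5, and overlapping heat shock repeats in Hspe1.
Hspa1b: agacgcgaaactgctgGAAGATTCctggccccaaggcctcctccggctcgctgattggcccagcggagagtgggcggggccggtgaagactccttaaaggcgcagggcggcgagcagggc
Hspb1: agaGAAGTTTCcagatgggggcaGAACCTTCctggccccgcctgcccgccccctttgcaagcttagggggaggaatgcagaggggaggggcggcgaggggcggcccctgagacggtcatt
Hspa5: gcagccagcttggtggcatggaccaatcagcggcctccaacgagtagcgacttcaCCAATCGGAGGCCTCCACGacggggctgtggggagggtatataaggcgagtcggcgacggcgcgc
Hspe1: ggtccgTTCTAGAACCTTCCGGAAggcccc
Hspa1a and Hspa1b are neighbouring copies on chromosome 17 that encode almost the same HSP70 protein, and their promoters were identical at 247 of 250 bases. Signal assigned to Hspa1b may therefore include Hspa1a transcripts, and how far the probes separate the copies was not tested.

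The tissue was checked against defining markers before the genes were described. Tyrosine hydroxylase, Th, which limits the rate at which dopamine is made, was at log2 10.99 to 11.18 in the saline arrays, and Slc6a3, the dopamine transporter, at 11.90 to 12.09, so dopamine neurons were represented in these dissections. For each array, the mean of the 12 dopamine neuron markers was taken relative to the saline mean. It was -0.62 to -0.50 in the 1 mg/kg arrays and -0.49 to -0.38 in the 10 mg/kg arrays. In the saline arrays it was -0.15 to 0.19. Markers of neighbouring regions differed between the groups too. The mean of 3 serotonin neuron markers was -2.12 to -1.65 in the 1 mg/kg arrays and -1.90 to -0.66 in the 10 mg/kg arrays. Saline arrays lay at -1.30 to 0.95. The mean of 4 thalamus markers was 0.74 to 1.23 for 1 mg/kg and -0.62 to 0.79 for 10 mg/kg. It was -1.05 to 0.65 in the saline arrays, with saline replicate 2 the lowest. What was dissected, fewer cells of a type and less RNA per cell cannot be told apart in bulk tissue. Array medians lay between 4.49 and 4.53. Replicate 1 of the 10 mg/kg group also stood apart. The mean of 9 measured markers of cortical and hippocampal excitatory neurons was 1.05 above saline in it. In the other arrays it was between -0.20 and 0.19. The mean of 9 oligodendrocyte markers was at -0.55 in replicate 1 of the 10 mg/kg group, against -0.29 to 0.19 elsewhere. The mean of 9 microglia markers was at -0.42 in that array and at -0.15 to 0.19 elsewhere. The 3' to 5' difference of the Actb control probe sets, a sign of RNA quality, was 1.04 to 1.19 in the 1 mg/kg arrays and 1.03 to 1.12 in the 10 mg/kg arrays, against 0.88 to 0.93 in the saline arrays. For Gapdh the groups overlapped, at 0.22 to 0.41 and 0.28 to 0.37, against 0.23 to 0.39 in the saline arrays.

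Hspa1b, the inducible HSP70 that is scarce in unstressed cells, varied most. Its brightest probe set had log2 values of 8.09, 8.99 and 7.84 in the saline arrays, 8.01, 8.63 and 9.50 in the 1 mg/kg arrays, and 10.28, 8.57 and 9.93 in the 10 mg/kg arrays. The top 2 arrays were both from the 10 mg/kg group, but its remaining array lay below the highest saline array, so all 3 groups overlapped. From the lowest to the highest array the level spanned 5.42-fold, and its standard deviation within groups exceeded that of 99.8% of all probe sets. The other probe sets of the gene ranked the arrays in nearly the same order, with a lowest correlation of 0.995 between any pair of the 3. The log2 difference from saline was 0.41 ± 0.54 (SE) in the 1 mg/kg arrays (adjusted p = 0.824 in limma). In the 10 mg/kg arrays it was 1.28 ± 0.54, a fold of 2.44 with a 95% interval of 1.02 to 5.85, and the adjusted p in limma was 0.516. Without replicate 1 of the 10 mg/kg group the difference for that dose was 0.71, and without replicate 2 it was 1.95. Between the doses, 10 mg/kg against 1 mg/kg, the difference was 0.88 ± 0.54 (SE, adjusted p = 0.806 in limma).

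**Figure D1:**
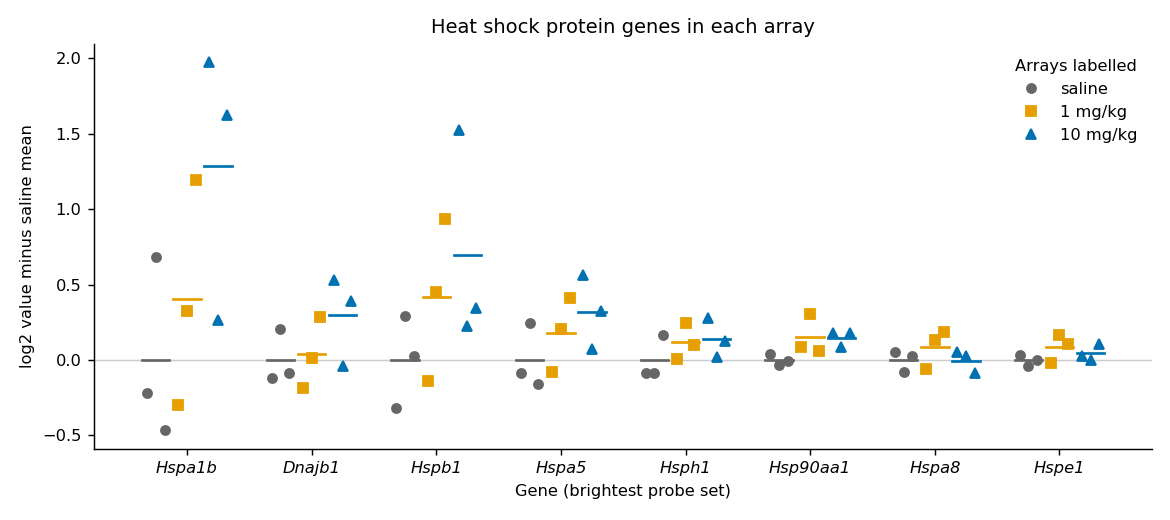
Log2 value of the brightest probe set of each of the 8 measured genes, minus that gene's saline mean, in each of the 9 arrays. Points are single arrays and short bars are group means (n = 3). Hspa1b and Hspb1 spread widely within every group, while the points of Hspa8 and Hspe1 lie close to 0.

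Hspb1, a small heat shock protein that holds unfolded proteins and stabilises actin, is induced with Hspa1b under stress. Its brightest probe set had log2 values of 7.68, 8.29 and 8.02 in the saline arrays, 7.86, 8.45 and 8.93 in the 1 mg/kg arrays, and 9.52, 8.22 and 8.34 in the 10 mg/kg arrays. Replicate 1 of the 10 mg/kg group was the highest, and the other arrays of that group lay within or just above the range of the saline arrays. The difference from saline was 0.42 ± 0.40 (SE) for 1 mg/kg and 0.70 ± 0.40 for 10 mg/kg, with adjusted p = 0.750 and 0.599 in limma. The 1 mg/kg value was 0.08 without replicate 3 and 0.82 without replicate 1 of that group, and the 10 mg/kg value was 0.07 without replicate 1 of its group. A further pair of probe sets assigned to Hspb1 was dim, between 3.28 and 4.63, on a scale where the median of controls without a matching transcript was 3.03.

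Dnajb1, the HSP40 co-chaperone that delivers substrates to HSP70 and stimulates its ATPase, had log2 values of 9.85, 10.17 and 9.88 in the saline arrays, 9.78, 9.98 and 10.25 in the 1 mg/kg arrays, and 10.50, 9.93 and 10.36 in the 10 mg/kg arrays. The arrays that were high for Hspa1b were again the high ones, and the groups overlapped. The difference from saline was 0.03 ± 0.18 (SE) for 1 mg/kg and 0.30 ± 0.18 for 10 mg/kg, with adjusted p = 0.961 and 0.616 in limma. The dimmer probe set gave -0.20 and 0.06 for these comparisons, so the direction at 1 mg/kg depends on the probe set. The 10 mg/kg value of the brighter probe set was 0.09 without replicate 1 and 0.51 without replicate 2 of that group.

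Hspa5, also called BiP, is the HSP70 of the ER and holds the sensors of the unfolded protein response inactive until misfolded protein draws it away. It had log2 values of 10.56, 10.89 and 10.49 in the saline arrays, 10.57, 10.85 and 11.06 in the 1 mg/kg arrays, and 11.21, 10.72 and 10.97 in the 10 mg/kg arrays. A single saline array, replicate 2, lay as high as the middle of the MPH arrays. The difference from saline was 0.18 ± 0.18 (SE) for 1 mg/kg and 0.32 ± 0.18 for 10 mg/kg, with adjusted p = 0.764 and 0.592 in limma. The other probe set gave smaller values, 0.06 ± 0.18 and 0.10 ± 0.18. In the brighter one, without replicate 3 of the 1 mg/kg group the value for that dose was 0.03, and without replicate 1 of the 10 mg/kg group the value for 10 mg/kg was 0.12.

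Hsp90aa1, the stress-inducible cytosolic HSP90 that matures kinases and steroid receptors, was the only one of the 8 genes whose MPH arrays all lay above all saline arrays. It had log2 values of 11.90, 11.83 and 11.86 in the saline arrays, 11.95, 12.17 and 11.92 in the 1 mg/kg arrays, and 12.04, 11.95 and 12.04 in the 10 mg/kg arrays. The gap was small: the lowest MPH array was at 11.92 and the highest saline array at 11.90. The difference from saline was 0.15 ± 0.09 (SE) for each dose, and over both MPH groups it was 0.15 ± 0.08, a fold of 1.11, with an adjusted p of 0.508 in limma. The 1 mg/kg value was 0.05 without replicate 2 of that group. Of all 17097 genes, 3.4% had the 6 MPH arrays above all saline arrays and 7.8% had them below.

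Hsph1, the HSP110 that acts as a nucleotide exchange factor for HSP70, had log2 values of 11.15, 11.15 and 11.40 in the saline arrays, 11.24, 11.48 and 11.33 in the 1 mg/kg arrays, and 11.51, 11.25 and 11.36 in the 10 mg/kg arrays. A single saline array exceeded most MPH arrays. Its differences from saline were 0.11 ± 0.11 (SE) for 1 mg/kg and 0.14 ± 0.11 for 10 mg/kg, with adjusted p = 0.760 and 0.707 in limma.

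Hspa8, the constitutive HSP70 that also uncoats clathrin vesicles, and Hspe1, the HSP10 that caps the mitochondrial chaperonin, were the steadiest. Hspa8 spanned 1.20-fold over the 9 arrays, from 12.99 to 13.26, and Hspe1 spanned 1.15-fold, from 10.73 to 10.93. The 95% intervals of the log2 differences from saline were -0.13 to 0.30 for 1 mg/kg and -0.22 to 0.21 for 10 mg/kg in Hspa8, and -0.10 to 0.26 and -0.14 to 0.22 in Hspe1. A dim probe set of Hspa8 ranged from 5.07 to 6.53, with differences from saline of 0.18 ± 0.41 (SE) for 1 mg/kg and 0.64 ± 0.41 for 10 mg/kg.

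**Figure D2:**
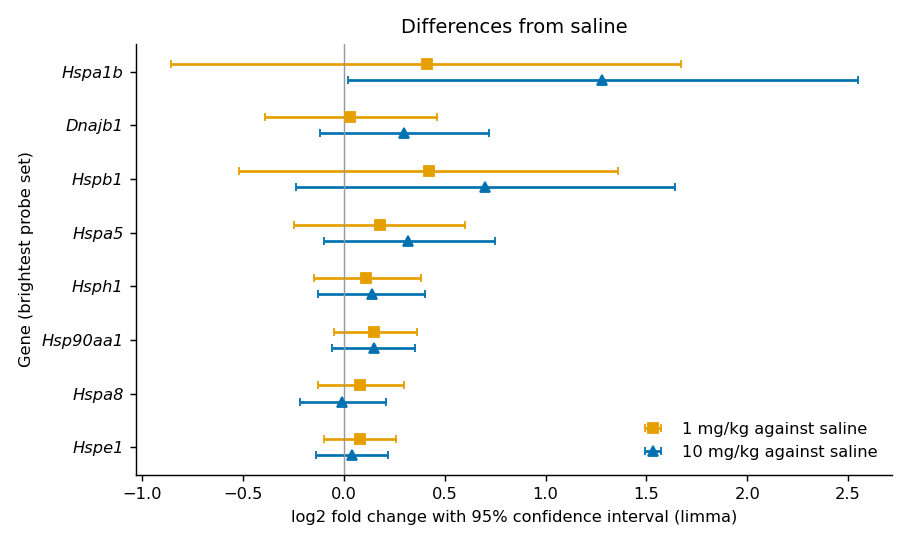
Log2 fold change of each of the 8 genes against saline, for the arrays labelled 1 mg/kg (squares) and 10 mg/kg (triangles), with the 95% confidence interval from limma (n = 3 arrays per group). The interval of Hspa1b for 10 mg/kg, 0.02 to 2.55, is the one that does not include 0.

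No probe set of the 8 genes passed an adjusted p of 0.05 in limma, in any comparison. The smallest adjusted p among the 19 was 0.581 for 1 mg/kg against saline, 0.516 for 10 mg/kg against saline, 0.508 for both MPH groups against saline and 0.774 for 10 mg/kg against 1 mg/kg. With the replicate number in the fit, none of the 45037 probe sets on the array passed either (0% in each of the 4 comparisons). A count of 0 therefore says nothing particular about the chaperones. When the replicate number was left out of the fit, the members still gave 0 calls, with the smallest adjusted p at 0.232 in limma, while 0.12%, 0.255% and 0.46% of all probe sets were called for 1 mg/kg, 10 mg/kg and both doses against saline, and 0% for 10 mg/kg against 1 mg/kg. At an unadjusted p of 0.05 or less, 2 of the 19 probe sets were higher for 10 mg/kg against saline, both of Hspa1b, where 4.08% of all probe sets were higher. For 10 mg/kg against 1 mg/kg 1 of 19 was higher, a dim probe set of Hspb1, where 3% of all were. For 1 mg/kg and for both doses against saline 0 of 19 were higher, where 4.53% and 4.72% of all were. Since 1 of 19 is close to these shares, that count is no result about Hspb1.

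By gene, 8 of 8 fold changes were above 0 for 1 mg/kg and 7 of 8 for 10 mg/kg, with medians of 0.13 and 0.22, while 43.7% and 44% of all genes were above 0, with medians of -0.021 and -0.02. Without replicate 1 of the 10 mg/kg group, a setting added after the data were seen, the count for 10 mg/kg was again 7 of 8 and its median 0.08, against -0.014 for all genes. The comparisons share the saline arrays, and the gene counts are descriptions. At an unadjusted p of 0.05 or less, 3.32% of all genes were higher and 7.4% lower for 1 mg/kg, 3.28% and 6.95% for 10 mg/kg, and 3.61% and 8.64% for both doses. The arrays did not overlap with saline for 8.97% of all genes on the higher side and 15.3% on the lower side for 1 mg/kg, and for 8.75% and 15.8% for 10 mg/kg. In each dose comparison Hsp90aa1 was the only gene of the 8 whose brightest probe set did not overlap with saline. For 10 mg/kg, another bright probe set of Hspa8 lay just below all saline arrays, with a difference of -0.10 ± 0.08 (SE). A dim probe set of Hspb1 lay above them, with 0.18 ± 0.09.

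Hspa1b, Dnajb1, Hspa5 and Hspb1 were high and low in the same arrays. This relation was examined after the values were seen. The permutations exchanged all 9 arrays freely, so their p-values take no account of the groups. Over the 9 arrays, Hspa1b correlated with Dnajb1 at Pearson r = 0.98 (exact permutation p = 1.93e-05, adjusted over 7 relations 0.000135) and Spearman rho = 0.95 (adjusted exact p = 0.00123). With Hspa5 the values were r = 0.96 (exact permutation p = 8.27e-05, adjusted 0.000289) and rho = 0.97 (adjusted exact p = 0.00116), and with Hspb1 r = 0.84 (exact permutation p = 0.00307, adjusted 0.00716) and rho = 0.85 (adjusted exact p = 0.0142). Without replicates 1 and 3 of the 10 mg/kg group, the farthest from the median of Hspa1b, r was 0.94 with Dnajb1, 0.98 with Hspa5 and 0.89 with Hspb1. Taken within groups, as deviations from each group mean, r was 0.99, 0.97 and 0.79 in the same order, so the 4 genes moved together between arrays of the same group. Without replicate 1 of the 10 mg/kg group alone, r was 0.97 with Dnajb1, 0.94 with Hspa5 and 0.73 with Hspb1. For Hsph1, Hsp90aa1, Hspe1 and Hspa8, r was 0.43, 0.36, 0.30 and 0.04 (adjusted exact permutation p between 0.417 and 0.926).

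**Figure D3:**
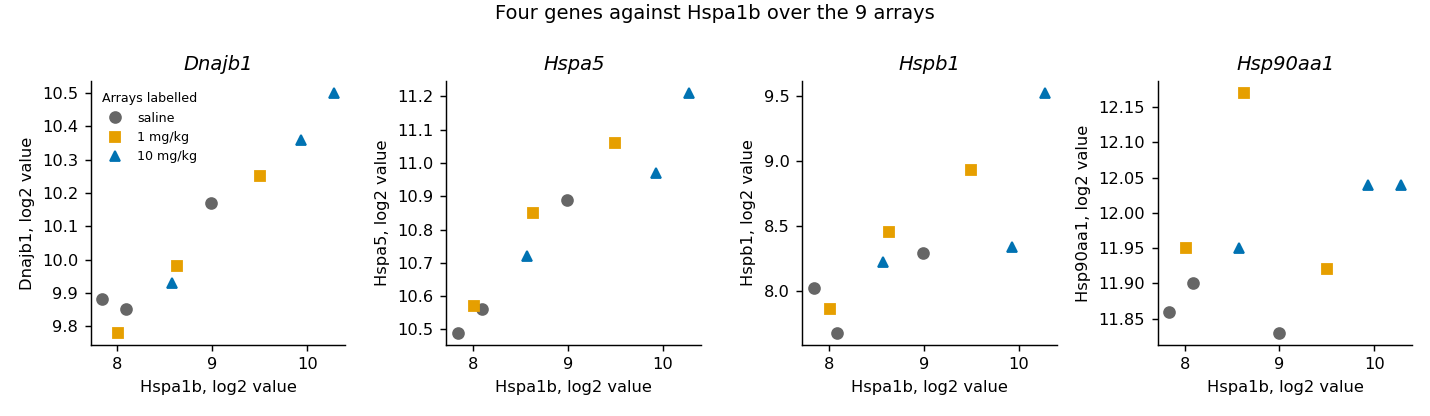
Log2 values of Dnajb1, Hspa5, Hspb1 and Hsp90aa1 against those of Hspa1b, a point per array, with shape and colour for the group. Dnajb1 (r = 0.98) and Hspa5 (r = 0.96) follow Hspa1b in saline and MPH arrays alike, and Hsp90aa1 (r = 0.36) does not.

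Markers moved with these genes in replicate 1 of the 10 mg/kg group, the highest array for Hspa1b, Hspb1, Dnajb1 and Hspa5: it is the array in which cortical and hippocampal markers were 1.05 above saline and oligodendrocyte markers were at -0.55. Their part in the levels of these genes was not tested. The other high array, replicate 3 of the 10 mg/kg group, had the cortical and hippocampal markers at 0.11 and the oligodendrocyte markers at -0.15.

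Among 14749 probe sets of other single genes with a mean log2 value over 5, the 5 most like the most variable probe set of Hspa1b over the 9 arrays were Fastkd5 (r = 0.99) and Thap2, Sesn1, Zzz3 and Jade1 (r = 0.96 each). They moved far less than Hspa1b: their standard deviation over the arrays was 0.09 to 0.17. Ranked among 9856 genes for the likeness of their brightest probe set to that of Hspa1b, Dnajb1 was number 2, Hspa5 number 4 and Hspb1 number 153, while Hsph1 was number 1704.

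Fold changes of other chaperone and stress-response genes lay on both sides of 0. The lists of these genes include transcription factors as well as chaperones. Of their 101 genes 95 were measured, and 37 were above and 58 below saline for 1 mg/kg, 48 and 47 for 10 mg/kg. None passed an adjusted p of 0.05 in limma, with or without the replicate number in the fit, against unadjusted counts of 2 higher and 9 lower for 1 mg/kg and 4 higher and 8 lower for 10 mg/kg. Beside these stand 7.4% and 6.95% of all genes lower at that p, against 9.47% and 8.42% of the 95. On the lower side, Cdc37, which loads kinases onto HSP90, had -0.42 ± 0.12 (SE) for 1 mg/kg and -0.40 ± 0.12 for 10 mg/kg, with all 6 MPH arrays below the saline arrays. Hspa14, an HSP70 that associates with ribosomes, had -0.43 ± 0.12 and -0.39 ± 0.12, also without overlap. Unc45a, the myosin chaperone that works with HSP90, Bag2, an HSP70 cofactor that inhibits CHIP, and Sil1, the exchange factor of Hspa5, had -0.38, -0.55 and -0.24 for 1 mg/kg and -0.57, -0.44 and -0.28 for 10 mg/kg. On the higher side, Dnajb5 had 0.35 ± 0.08 and 0.30 ± 0.08, and Dnajc3, an ER co-chaperone induced by the unfolded protein response, 0.42 ± 0.17 and 0.41 ± 0.17, both above all saline arrays in all 6 MPH arrays. The adjusted p in limma of these 7 genes lay between 0.378 and 0.519.

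Among mitochondrial proteins of quality control, Lonp1, the matrix protease, had -0.28 ± 0.08 (SE) for 1 mg/kg and -0.25 ± 0.08 for 10 mg/kg, and Clpp -0.14 ± 0.06 in each comparison. For the cytosolic chaperonin TRiC, 6 of 8 subunit genes were below saline for 1 mg/kg and 7 of 8 for 10 mg/kg, with medians of -0.09 and -0.06. The ER list had 14 of 23 genes above saline in each comparison, with medians of 0.03 and 0.02. Of all genes, 43.7% were above 0 for 1 mg/kg and 44% for 10 mg/kg, with medians of -0.021 and -0.02.

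The likeness to Hspa1b was also computed for the other chaperone and stress-response genes, as a description on the same 9 arrays. The limit on r was set after the values were seen. Of 87 other chaperone and stress-response genes in this ranking, 11 had r above 0.8 with Hspa1b (12.6%), against 235 of 9856 genes (2.38%). They were Ahsa2, Ptges3, Chordc1, Dnajb4, Dnajb12, Bag3, Sdf2l1, Creld2, Herpud1, Xbp1 and Serpinh1, a set that includes targets of HSF1 such as Bag3, a partner of HSP70 in autophagy, and ER stress genes such as Xbp1, a transcription factor of the unfolded protein response. In the same ranking the 11 genes of the HSF1-induced list had a median r of 0.71, the 22 of the ER list 0.52 and the 8 of TRiC -0.13, against -0.14 for all genes. Lists of other genes reached values of the same size: cortical and hippocampal markers 0.62, immediate-early genes 0.55, oligodendrocyte markers -0.63, microglia markers -0.61 and thalamus markers -0.53. Serpinh1, the collagen chaperone HSP47, had 0.29 ± 0.24 (SE) for 1 mg/kg against saline and 0.53 ± 0.24 for 10 mg/kg, with adjusted p = 0.707 and 0.535 in limma.

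**Figure D4:**
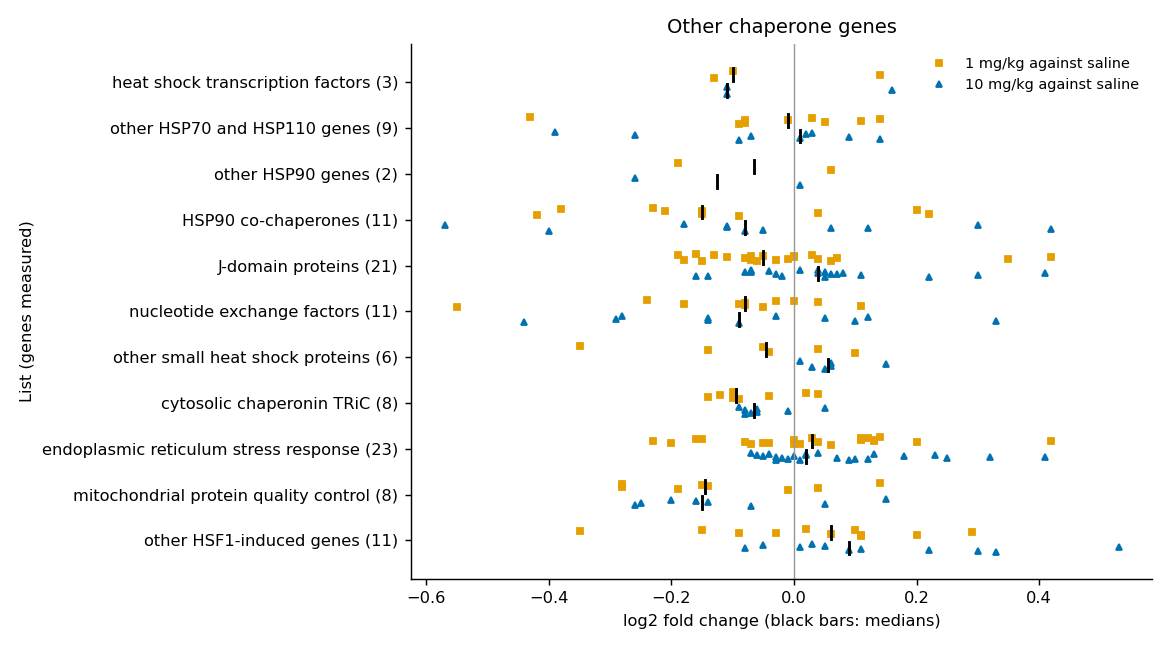
Log2 fold changes against saline of the measured genes in 11 lists of other chaperone and stress-response genes. Squares are 1 mg/kg, triangles are 10 mg/kg and black bars are the list medians. The medians lie between -0.15 and 0.09, and no gene passed the adjusted p of 0.05.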

How the data were processed

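The deposited log2 values were made by the authors with Robust Multichip Average (no version given), from RNA of 9 substantia nigra samples. The methods also name ComBat for a batch of the 3 replicates, and whether the deposited values include it is not stated. The 45037 probe sets left after removal of 104 controls were analysed in limma (version 3.58.1, under R 4.3.3; lmFit and eBayes) with a model of group plus replicate number. P-values were two-sided, with Benjamini-Hochberg adjustment across the 45037 and a threshold of 0.05. This replicate block follows the methods' batch, the source of the pairing. As a check, deviations from the group means were correlated between arrays of different groups. Arrays sharing a number gave -0.652 to -0.096, all below 0, and arrays with different numbers gave -0.069 to 0.476. These correlations showed no likeness of arrays sharing a number for the block to remove. Values already corrected for a batch of the replicates would also give correlations below 0 for shared numbers. The check therefore cannot show whether a batch was absent or had been removed, and the block may correct for it again. The fit with the block keeps 4 residual degrees of freedom. The calls over all probe sets depend on the block. Against saline, the fit with it gave 0, and without it 54 were called for 1 mg/kg, 115 for 10 mg/kg and 207 for both doses. For single doses, the study reports the same counts as the fit without the block, with the dose names exchanged. P-values set a group difference against the spread between these arrays that the model leaves, moderated over all probe sets. Gene symbols came from the platform annotation (28898 probe sets name 1 gene, 551 several and 15588 none), and the brightest probe set stands for a gene. Promoters came from RefSeq.

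The members and lists were chosen with earlier results of these data known. Named were all members, genes among the 3 per list with the smallest p over both doses, and the 5 probe sets most like the most variable member probe set. The genes with r above 0.8 were named after their values were seen. Alternatives were the block, the groups in the fit, normalization, a filter on dim probe sets, the variance model, array weights, the threshold, the probe set that stands for a gene, and leaving out each array. The fit was tested on simulated data.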

Additional observations from a re-analysis of the deposited data

How the results depend on the processing

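The number of probe sets called among the members was 0 in all 4 comparisons under each alternative, including with no replicate block. Over all probe sets, leaving out the replicate block gave 54 calls for 1 mg/kg, 115 for 10 mg/kg and 207 for both doses against saline, where the fit with it gave 0, 0 and 0, and an intensity trend together with the robust option gave 2, 1 and 3. Leaving out 1 array gave 0 or 1. The counts for single doses without the block are those that the study reports, each under the name of the other dose. Of 256 fold changes of members under 16 alternatives each, 245 kept their sign, 11 changed it and 0 were called, with a smallest adjusted p of 0.238 in limma. Some alternatives cannot change a fold change in this balanced design. These are the block, the groups in the fit, the variance model and leaving out an array of the group not compared. The count of kept signs is therefore no measure of robustness. With the mean of all probe sets of a gene, Dnajb1 was -0.08 for 1 mg/kg and Hspa8 was 0.13 for 10 mg/kg. Leaving out each array in turn gave -0.11 to 1.02 for Hspa1b, 0 to 0.21 for Hsph1 and -0.09 to 0.23 for Dnajb1 in the 1 mg/kg comparison, and -0.06 to 0.06 for Hspa8 and 0.71 to 1.95 for Hspa1b in the 10 mg/kg comparison. Immediate-early genes higher at an unadjusted p of 0.05 in the 10 mg/kg comparison numbered 7 with all arrays, where 3.28% of all genes were higher. They numbered 0 without replicate 1 of the 10 mg/kg group. No other array was left out for this count, and a fit with an array fewer is less precise. The cause of these changes was not tested. The number of arrays, 3 per group, limits the precision.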

Other observations

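The immediate-early genes, which neurons transcribe soon after activation, were mostly above saline for 10 mg/kg. For 10 mg/kg against saline, 8 of 12 lay above all saline arrays and 1 below, where 8.75% and 15.8% of all genes did. An unadjusted p of 0.05 or less was reached by 7 of 12, all higher, where 3.28% of all genes were higher at that p. Without replicate 1 of the 10 mg/kg group, a setting added after the data were seen, 0 were higher at that p. This count was not made without any other array. For 1 mg/kg these counts were 0 above, 1 below and 1 at that p, which was lower. Of all genes, 8.97% lay above, 15.3% below and 7.4% were lower at that p. Egr4, Npas4 and Arc, counted among the 7 for 10 mg/kg, were dim, between 3.46 and 4.91. The median of controls without a matching transcript was 3.03. Jun, a subunit of the AP-1 transcription factor, had log2 values of 8.94, 8.59 and 8.50 in the 10 mg/kg arrays, against 8.17, 8.24 and 8.44 in the saline arrays, and the difference was 0.39 ± 0.14 (SE, adjusted p = 0.474 in limma). Nr4a1, an activity-induced nuclear receptor, had 7.43, 7.15 and 7.20 in the 10 mg/kg arrays, against 6.83, 6.65 and 7.09 in the saline arrays, with a difference of 0.41 ± 0.15 (SE, adjusted p = 0.492 in limma). Replicate 1 of the 10 mg/kg group, in which cortical and hippocampal markers were 1.05 above saline, was also the highest for both genes, and the part of these markers was not tested.

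Of the pair of cold-induced RNA-binding proteins, Rbm3 followed Hspa1b over the 9 arrays (r = 0.90) and was highest at 6.11 in replicate 1 of the 10 mg/kg group. Cirbp was lowest in that array, at 8.19, and its values in the other arrays were 8.35 to 9.17.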
